A study of Mus musculus with 2 samples.

Results

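The cells described here were 127 of the 8458 quality-controlled barcodes of the C3-TAg library, or 1.502% (95% exact binomial interval 1.25% to 1.78%), in which a high Cdkn2a count went together with high counts of the matrix and filament genes Fn1 and Vim. A barcode was kept with at least 500 genes, at least 1000 unique molecular identifiers (UMIs, each standing for 1 captured transcript) and at most 10% mitochondrial UMIs. A kept cell was a member if it held at least 5 Cdkn2a UMIs and at least 5 UMIs of Fn1 and Vim summed. The cells were thus chosen by the measured counts of these 3 genes, and their levels are a description of the choice. The members were set against 794 comparison cells of the same library with at least 1 Cdkn2a UMI, fewer than 5 Fn1 and Vim UMIs and fewer than 5 UMIs per 10000 of the hormone-receptor-linked genes Areg, Pgr, Esr1 and Cited1. Over both libraries 15864 cells were kept, and the same rule found 0 members among the 7406 WT cells, with an upper limit of 0.0498% by the same kind of interval.

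Mammary luminal epithelial cells of FVB/NJ mice aged 3.5 months had been isolated by flow cytometry, and 10000 cells per genotype were submitted for droplet-based 3′ single-cell RNA sequencing. The C3-TAg library came from Sox9-GFP;C3-TAg mice, which carry a transgene for the simian virus T antigens under a steroid-binding-protein promoter that is active in mammary epithelium. The WT library came from Sox9-GFP mice, so both genotypes carried the Sox9-GFP reporter. Each genotype was 1 library, and the sources used here do not give how many mice gave cells to it. No comparison below has a replicate, no test across samples was possible, and every interval covers counting error only.

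The locus Cdkn2a encodes the INK4A and ARF proteins, which restrain the cell cycle through the Rb and p53 pathways. T antigen binds and inactivates Rb and p53, and Cdkn2a transcripts accumulate in cells in which Rb no longer represses the locus. Fibronectin (Fn1) and vimentin (Vim) are textbook markers of the mesenchymal state that carcinoma cells can take on in part while keeping epithelial keratins.

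Members were deeper than the comparison cells: a member had a median of 13150 UMIs and 4060 genes, and a comparison cell one of 10027.5 UMIs and 3312.5 genes. The pooled totals were 2100836 UMIs in members and 9296056 UMIs in comparison cells. Scrublet called 15 of 127 members (11.8%) and 55 of 794 comparison cells (6.93%) doublets. Both kinds of call were kept, and the part of depth and of doublets in each difference was not tested except by the alternatives given in the closing section. Of 20 barcodes that occurred in both libraries, 17 were kept in both and 0 of those were members.

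The counts of Cdkn2a sum over both of its start sites, which lie 12427 bases apart on chromosome 4, so INK4A and ARF transcripts cannot be told apart. Both promoter windows from RefSeq (GRCm38.p6) are shown because the gene defines these cells, from 250 bases before the start to 50 bases from the start on, with those 50 bases in capitals.
Cdkn2a upstream start, chr4:89294570-89294869, minus strand: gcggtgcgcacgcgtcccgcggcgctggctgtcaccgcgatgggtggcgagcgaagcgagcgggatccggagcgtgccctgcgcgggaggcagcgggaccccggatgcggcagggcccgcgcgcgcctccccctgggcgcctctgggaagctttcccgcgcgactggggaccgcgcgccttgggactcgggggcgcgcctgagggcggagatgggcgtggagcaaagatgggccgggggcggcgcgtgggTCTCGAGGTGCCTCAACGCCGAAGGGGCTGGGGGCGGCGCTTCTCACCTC
Cdkn2a downstream start, chr4:89282143-89282442, minus strand: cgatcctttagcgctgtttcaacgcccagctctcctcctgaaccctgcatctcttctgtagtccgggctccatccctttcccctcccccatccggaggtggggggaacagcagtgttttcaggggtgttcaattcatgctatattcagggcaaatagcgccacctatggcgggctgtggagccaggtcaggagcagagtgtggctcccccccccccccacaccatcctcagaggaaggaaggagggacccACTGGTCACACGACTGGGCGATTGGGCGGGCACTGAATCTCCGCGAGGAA

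Levels are pooled CPM values: the UMIs of a gene summed over the cells of a group, scaled to a common total so that groups of unlike depth can be compared. Cdkn2a (chr4:89274471-89294653) was at 921 CPM in members and 260 CPM in comparison cells, with medians of 12 and 2 UMIs per cell. In the 4371 WT cells under the same receptor limit and with fewer than 5 Fn1 and Vim UMIs (receptor-low WT cells), 1 Cdkn2a UMI was counted in 52919170. Hormone-sensing C3-TAg cells, used below, were the 2047 cells with no Cdkn2a UMI, fewer than 5 Fn1 and Vim UMIs and at least 5 UMIs per 10000 of the receptor-linked genes. Fn1 (chr1:71585520-71653200) was at 840 CPM in members and 59.6 CPM in comparison cells. Every member had at least 2 Fn1 UMIs, and 122 of 127 had at least 5. Vim (chr2:13573927-13582826) was at 177 CPM in members and 4.95 CPM in comparison cells, yet only 45 of 127 members (35.4%) held any Vim UMI. Fn1 thus filled the threshold in most members, and Vim was carried by a part of them.

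**Figure D1:**
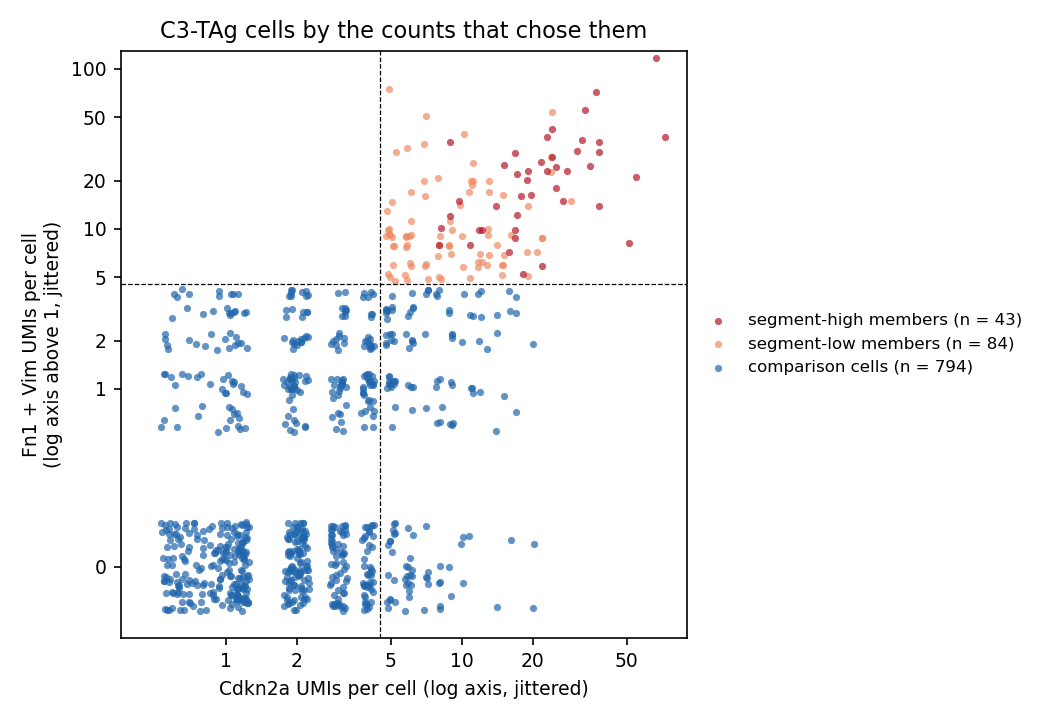
Each point is 1 C3-TAg cell, placed by its Cdkn2a UMIs (log axis) and its summed Fn1 and Vim UMIs (log axis above 1), with a small jitter; dashed lines mark the 5-UMI limits of the rule. The 43 members with high output from a chromosome 7 segment, described in the text, lie at higher Cdkn2a counts (median 22 UMIs) than the 84 others (median 8.5 UMIs).

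At both limits of the rule, Sparc was lower in the members just inside than in the cells just outside. The 29 members with 5 or 6 Cdkn2a UMIs had 25.8 CPM of Sparc and 5389 CPM of Epcam, and the 40 cells just outside with 3 or 4 Cdkn2a UMIs had 57.0 CPM of Sparc and 5240 CPM of Epcam. High output from the chromosome 7 segment described below was seen in 0 of those 29 and 4 of those 40 cells. The 25 members with 5 or 6 Fn1 and Vim UMIs had 46.5 CPM of Sparc, and the 43 cells just outside with 3 or 4 had 98.3 CPM. Such segment output was seen in 2 of those 25 and 1 of those 43 cells. Within members, Sparc was at 59.7 CPM in the 59 cells with 5 to 9 Fn1 and Vim UMIs, 234 CPM in the 30 cells with 10 to 19 and 429 CPM in the 38 cells with 20 or more. In the same order, 7, 13 and 23 of those cells had the high segment output.

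All members held markers of epithelium. Each of the 127 held at least 5 UMIs of Epcam, the epithelial adhesion molecule, and 123 held at least 5 UMIs of the luminal keratins Krt8 and Krt18. The defining stromal markers Col1a1 (fibroblasts), Pecam1 (endothelium) and Ptprc (leukocytes) had 0 UMIs in 2100836, with a 95% upper limit of 1.76 CPM for each. Of 7 fibroblast markers 4 were at 0 in members, as were 5 of 6 endothelial, 5 of 8 immune and 3 of 3 adipocyte markers, and the summed levels of those lists were 83.3, 0.95, 3.81 and 0 CPM. In comparison cells they were 2.90, 2.47, 9.25 and 0 CPM. The fibroblast sum in members came mainly from Col1a2, with 147 of 175 UMIs, while Col3a1, Lum and Dpt had none. It stood at 214.7 CPM in segment-high members and 20.4 CPM in segment-low members, a split described next, and its part in the matrix differences was not tested. Summed pericyte markers were at 32.8 CPM in members and 25.3 CPM in comparison cells, and summed Schwann cell markers at 118.5 and 118.01 CPM. The 16 cells of both libraries with at least 5 UMIs of endothelial markers held 772 CPM of Vim and 0 Fn1 UMIs, and the 39 cells picked likewise by immune markers held 513 CPM of Vim and 19.2 CPM of Fn1. Epcam was at 1055 CPM in those endothelial-marker cells and 2938 CPM in those immune-marker cells, the latter above its level in segment-high members. Epcam UMIs alone thus do not set a cell apart as epithelial here. The 1206 cells picked by fibroblast markers, 2 of them members, held 4401 CPM of Epcam and 9.72 CPM of Vim, and so did not serve as a fibroblast reference. Fn1 and Vim were fixed by the rule and say nothing on the label. Of the label's markers outside the rule, Sparc was held by 59 of 127 members and Vcan by 50, most of them in the group described next. Sox11, also outside the rule, was held by 88 members, 34 of them in that group and 54 outside it.

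Reading the ratios of members to comparison cells along the chromosomes set 1 place apart. In 9316 windows of 11 neighbouring expressed genes (at least 5 CPM), the median log2 ratio reached 1 in 17 windows, all on chromosome 7, and the highest window without genes of that place had a median of 0.94. The place was a segment of 7.76 Mb, chr7:81762925-89527187 (GRCm38), that holds 96 genes of the files and 15 expressed ones. Of those 15, 14 were at least 2-fold higher in members, a count largely fixed by how the segment was chosen. Over all genes with at least 20 CPM in either group, 3.65% were at least 2-fold higher in members (246 of 6746) and 0.578% at least 2-fold lower (39). That minimum differs from the 5 CPM used for the windows. The segment's edges were set at the outermost genes at least 2-fold higher, in a window of 5 genes with a median at least 2-fold higher. The next expressed genes were thus likely to fall short of that. Homer2, on the left, had a log2 ratio of -1.34 and Hikeshi, on the right, one of -0.14. This segment was found after the data were seen, by the contrast that the rule had fixed, and DNA copy number was not measured.

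The segment's output split the members. Its 96 genes gave at most 22.6 UMIs per 10000 in any of 7406 WT cells, and a limit of 25 was set above that after the values were seen. Above it lay 43 of 127 members (33.9%, interval 25.7% to 42.8%), called segment-high members below, with a median of 81.8 and a range of 25.8 to 354 segment UMIs per 10000. The 84 segment-low members had a median of 4.90, against 4.58 in comparison cells, 5.09 in hormone-sensing C3-TAg cells and 4.45 in receptor-low WT cells. Between 15 and 25 lay 2 members.

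**Figure D2:**
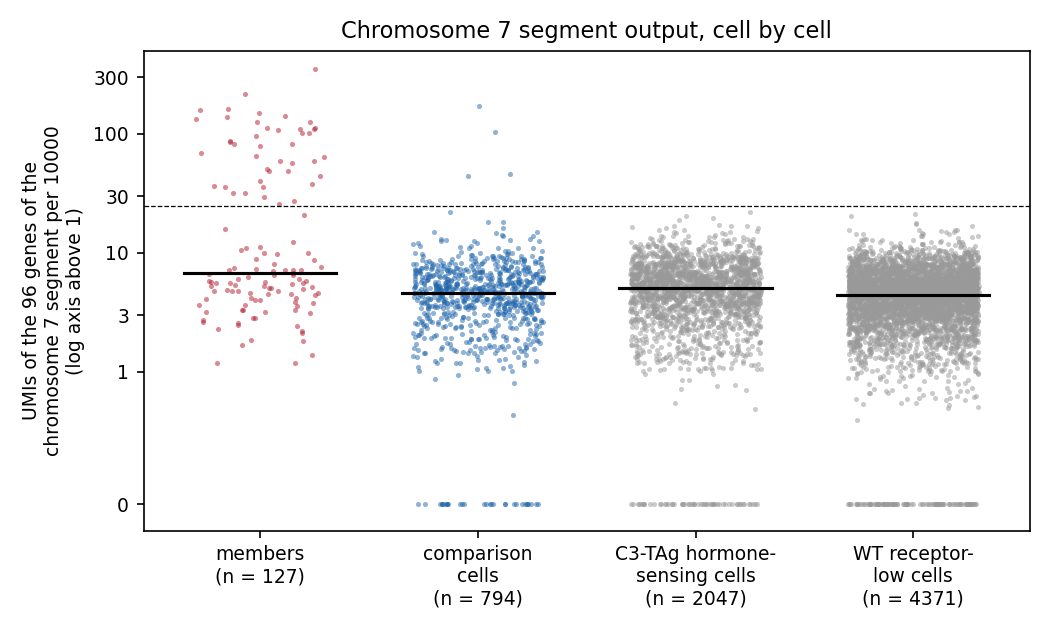
Each point is 1 cell, and the height is the UMIs of the 96 genes of the chromosome 7 segment per 10000 UMIs of that cell (log axis above 1); black bars are medians and the dashed line is the limit of 25. Of 127 members 43 lie above the line and of 794 comparison cells 4, while all hormone-sensing and WT receptor-low cells lie below it.

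In the whole C3-TAg library 51 cells passed this limit. All 51 held a Cdkn2a UMI and 45 held at least 5, whereas 0 of the 7215 cells without a Cdkn2a UMI passed it, which allows up to 0.0416% by a floor of 3 counts. Of the 8 segment-high cells that were not members, 6 had fewer than 5 Cdkn2a UMIs and 4 fewer than 5 Fn1 and Vim UMIs, and 6 held Sparc. Doublets were called for 4 of 43 segment-high members, 11 of 84 segment-low members and 55 of 794 comparison cells. Depth was alike in both kinds of member, with medians of 13135 UMIs in segment-high and 13421 UMIs in segment-low members.

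The 15 expressed genes of the segment were all at least 4-fold above the comparison cells in segment-high members, which is how those cells were chosen. Ctsc, the lysosomal protease cathepsin C that activates granule proteases (chr7:88278085-88310888), was at 2070.4 CPM in segment-high members, 50.7 CPM in segment-low members and 34.5 CPM in comparison cells. All 43 segment-high members held Ctsc. The secreted serine protease gene Prss23 (chr7:89507783-89527187) was at 1828, 80.2 and 30.98 CPM in the same order. Nox4, a producer of reactive oxygen species, was at 185, 10.6 and 7.96 CPM, and the Wnt receptor gene Fzd4 at 143, 5.63 and 4.95 CPM. Stard5, which codes for a sterol-binding protein, was at 469, 38.01 and 15.7 CPM. Of the other segment genes, Zfand6 was at 860.2, 103 and 105 CPM, Btbd1 at 443, 71.8 and 68.5 CPM, and Tlnrd1, the lowest ratio of the 15, at 299.97, 48.6 and 71.6 CPM. Without Ctsc and Prss23, the remaining segment genes gave over 15 UMIs per 10000 in 40 of 43 segment-high members and 0 of 84 segment-low members. In comparison cells it was 7 of 794. The remaining genes also entered the sum that split the members, so this contrast was largely fixed by the split.

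**Figure D3:**
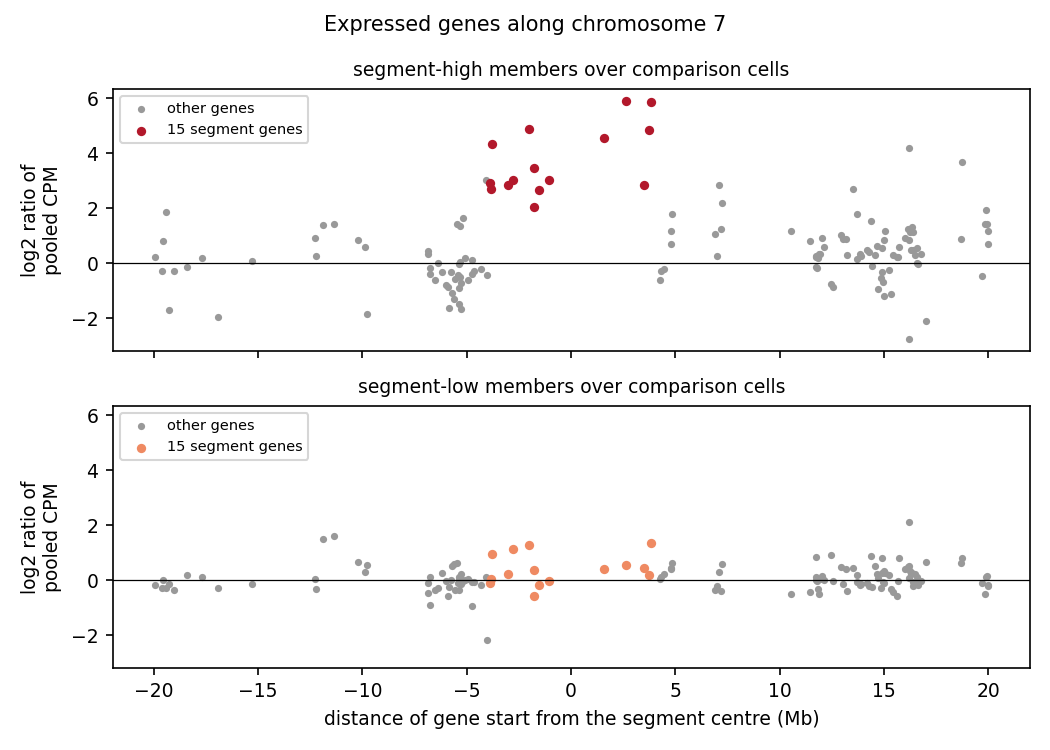
Each point is 1 expressed gene of chromosome 7, placed by the distance of its start from the segment centre in Mb; the height is the log2 ratio of pooled CPM, segment-high members over comparison cells above and segment-low members over comparison cells below. The 15 segment genes lie between 2.07 and 5.91 in the upper panel and between -0.56 and 1.37 in the lower one.

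The edges of the segment are approximate. Homer2 had a log2 ratio of -0.41 in segment-high members and -2.17 in segment-low members. Whamm, 1 gene beyond Homer2, had a log2 ratio of 3.04 in segment-high members. Ntrk3, the neurotrophin receptor gene to the left (chr7:78175959-78738012), was at 199.98 CPM in segment-high members, 2.82 CPM in segment-low members and 1.61 CPM in comparison cells. Fam181b, to the right (chr7:93079865-93081867), was at 199, 4.22 and 1.51 CPM. The ratios between the segment and these genes were mixed. On the right, Eed and Picalm had segment-high log2 ratios of -0.28 and -0.19, and Tmem126a, Tmem126b, Ccdc90b, Rab30, Ddias and Prcp ones of 1.17, 1.80, 1.06, 2.86, 1.26 and 2.19. On the left, Sec11a and Anpep had ratios of -0.37 and -1.62, and Blm and Sema4b ones of 1.65 and 1.42.

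Matrix and remodelling genes were mostly higher in segment-high members. Of 38 genes in that list 18 were measured (at least 20 CPM in members or comparison cells), 11 of them were at least 2-fold higher in members and 1, Plaur, at least 2-fold lower, with a median log2 ratio of 1.98 against 0.03 over all 6746 genes. Split by the segment, 15 of 21 measured matrix genes were higher in segment-high members and 3 lower (median 3.35), where 9.69% of 7048 genes were higher and 6.97% lower. In segment-low members 2 of 12 were higher and 0 lower (median 0.52), where 1.95% of 6670 genes were higher and 0.255% lower. The same shares of all genes apply to the list counts below. The lists count a gene as measured by the group where it is high, so these counts describe the cells and support nothing further.

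Sparc, a collagen-binding matrix protein (chr11:55394500-55423183), was at 629 CPM in segment-high members, 40.8 CPM in segment-low members and 30.4 CPM in comparison cells. Per cell, the lowest, median and highest values of Sparc per 10000 UMIs were 1.08, 5.76 and 25.9 in segment-high members, 0, 0 and 6.84 in segment-low members and 0, 0 and 11.6 in comparison cells. The ranges overlapped, but every segment-high member held Sparc and most other cells held none. After each cell was thinned to 5000 UMIs, which left out 1 member and 52 comparison cells, 37 of 42 segment-high members (88.1%) and 9 of 84 segment-low members (10.7%) held Sparc, against 77 of 742 comparison cells (10.4%) and 65 of 1940 hormone-sensing cells (3.35%). Unthinned, all 43 segment-high members, 16 of 84 segment-low members, 136 of 794 comparison cells and 113 of 2047 hormone-sensing cells held it. Segment-low members and comparison cells thus did not differ in Sparc beyond counting error (log2 ratio 0.42, interval -0.01 to 0.84). Vcan, the matrix proteoglycan versican (chr13:89655312-89742509), was at 263, 9.15 and 2.26 CPM in segment-high members, segment-low members and comparison cells. Its segment-high log2 ratio was 6.86 (6.21 to 7.59). Vim followed the same split at 523, 11.3 and 4.95 CPM, and 29 of the 30 members with at least 3 Vim UMIs were segment-high.

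Col1a2, which encodes a chain of fibrillar collagen I (chr6:4504814-4541544), was at 207 CPM in segment-high members, from 141 UMIs in 30 of 43 cells. It had 6 UMIs in segment-low members (4.22 CPM) and 4 in comparison cells (0.43 CPM), while Col1a1, the partner chain, had none in any member. Further matrix genes with the same order were Fbln2, an elastic-fibre protein, at 428, 49.97 and 26.5 CPM, and the small proteoglycan gene Bgn at 119, 4.22 and 2.26 CPM. The basement membrane collagen gene Col4a1 was at 141, 9.85 and 9.36 CPM, and Serpine2, a protease inhibitor, at 728, 113 and 27.8 CPM. Thbs1 and Timp3 went the other way, Thbs1 at 139.7, 603 and 474 CPM and Timp3 at 45.6, 255 and 160.1 CPM. Plaur, the urokinase receptor, was lowest in segment-high members at 101 CPM, 185 CPM in segment-low members and 343 CPM in comparison cells.

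**Figure D4:**
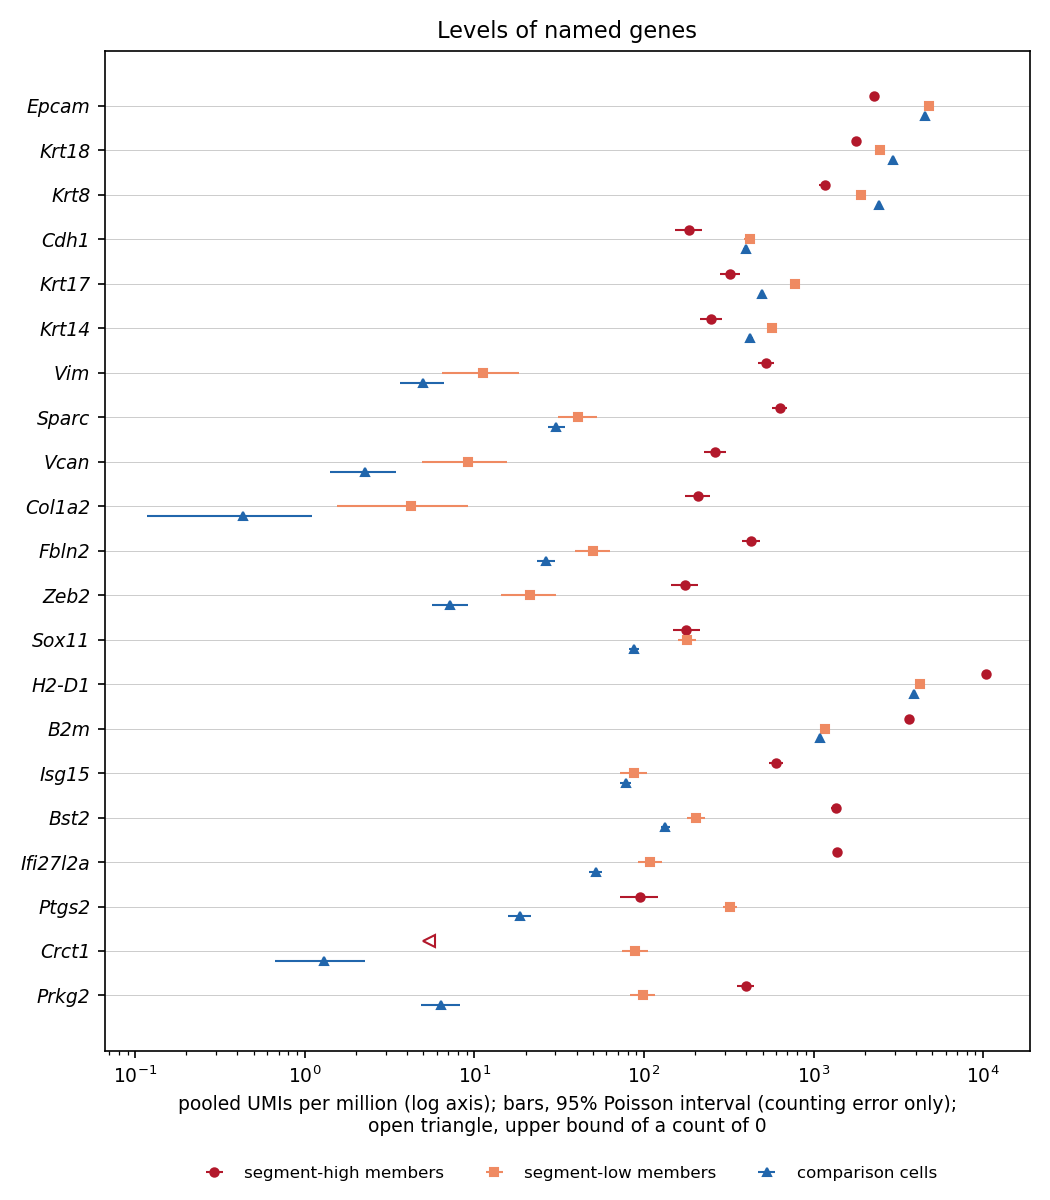
Pooled CPM of named genes (log axis) in 43 segment-high members, 84 segment-low members and 794 comparison cells; bars are 95% Poisson intervals and an open triangle is the upper bound of a count of 0. Vim, Sparc, Vcan, Col1a2 and the interferon genes are high in segment-high members alone among the 3 groups, Sox11 and Prkg2 lie above the comparison cells in both kinds of member, and Crct1 is high in segment-low members.

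Of 13 transcription factors of the epithelial-mesenchymal transition 4 were measured, and 1 of them, Zeb2, was at least 2-fold higher in members. Zeb2, a repressor of Cdh1, was at 174 CPM in segment-high members, 21.1 CPM in segment-low members and 7.21 CPM in comparison cells. Tcf4 was at 278, 101 and 83.2 CPM, and Foxc1 at 203, 133 and 91.9 CPM. Foxq1 was lower, at 25, 66.2 and 65.5 CPM. The 9 other factors, Snai1, Snai2, Twist1 and Zeb1 among them, were under 20 CPM in members and in comparison cells. Of 23 measured surface and cytoskeletal genes, 3 were at least 2-fold higher in members: the receptor kinase Axl (55.9, 21.8 and 8.18 CPM), Fscn1 (36.8, 26.04 and 11.1 CPM) and Tuba1a (410.2, 160.5 and 98.97 CPM). The median log2 ratio of the 23 genes was 0.32. Over all measured genes 3.65% were at least 2-fold higher in members, against 25% of the 4 factors and 13.0% of the 23 genes.

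Prkg2, a cGMP-dependent protein kinase gene on chromosome 5 (chr5:98929773-99037351), was among the highest in both kinds of member, at 397 CPM in segment-high members, 98.5 CPM in segment-low members and 6.35 CPM in comparison cells. At 5000 UMIs per cell 35 of 42 segment-high members (83.3%), 21 of 84 segment-low members and 14 of 742 comparison cells (1.89%) held it, and unthinned 42 of 43, 28 of 84 and 22 of 794. In WT receptor-low cells it was at 0.04 CPM. Osr1, an odd-skipped transcription factor gene of embryonic mesenchyme, was at 199, 21.8 and 6.67 CPM. Col11a1, a cartilage-type collagen gene, was at 175, 10.6 and 4.52 CPM. Col8a1 was at 64.7 CPM in segment-high members, 58.4 CPM in segment-low members and 2.80 CPM in comparison cells. It came from 8 of 43 segment-high and 21 of 84 segment-low members, and 3 cells gave 77.3% and 48.2% of its UMIs there. It was at 373 CPM in hormone-sensing cells, which the comparison cells exclude and the members do not. Of the members, 31 of 127 had at least 5 UMIs per 10000 of the receptor-linked genes. This unequal limit enters every ratio of members to comparison cells.

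Epithelial genes were lower in segment-high members and close to the comparison cells in segment-low members. Of 25 luminal keratins and junction genes, all measured, 0 were at least 2-fold higher and 13 at least 2-fold lower in segment-high members (median -1.02), and in segment-low members 0 were higher and 1 lower, Muc1 (median -0.04). Epcam was at 2259 CPM in segment-high members, 4792 CPM in segment-low members and 4511 CPM in comparison cells. Per cell it spanned 6.52 to 54.4 per 10000 UMIs in segment-high members (median 18.7), 15.8 to 162 in segment-low members (median 44.7) and 8.86 to 137 in comparison cells (median 44.1). No member lacked Epcam, and the groups overlapped. Cdh1, which encodes E-cadherin, was at 184, 419 and 397 CPM, and after thinning 38.1% of segment-high members, 83.3% of segment-low members and 81.8% of comparison cells held it (unthinned 76.7%, 98.8% and 92.7%). Krt8 was at 1162, 1911 and 2435 CPM. The tight-junction gene Cldn3 (234, 941 and 982 CPM) and Krt7 (222, 940.3 and 859.7 CPM) had segment-high log2 ratios of -2.07 and -1.95, while Krt19 was level at 543, 555 and 539 CPM. Of 12 measured epithelial fate factors 3 were lower in segment-high members (median -0.91), Elf5, which drives the alveolar fate, Ovol1 and Tfcp2l1, and none in segment-low members (median -0.14). Over all measured genes 6.97% were lower in segment-high and 0.255% in segment-low members.

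Basal genes differed singly between the kinds of member. In the list of basal keratins and contractile genes, 2 of 8 measured genes were at least 2-fold higher in members, Tagln and Tpm2, and 1 lower, Krt16 (median 0.13). In segment-high members 4 of 11 were higher and 3 lower (median -0.62), and in segment-low members 2 of 8 were higher and 1 lower (median 0.40). Over all measured genes 9.69% were higher and 6.97% lower in segment-high members, and 1.95% and 0.255% in segment-low members. Krt6a, a stress-inducible keratin, was at 33.8, 2.11 and 1.51 CPM in segment-high members, segment-low members and comparison cells, and the smooth muscle actin gene Actg2 at 30.9, 1.41 and 1.29 CPM. Krt17 was at 322 CPM in segment-high members, 773 CPM in segment-low members and 495 CPM in comparison cells, and Krt14 at 249, 569 and 423 CPM. The basal markers Krt5, Trp63 and Myh11 had no UMI in segment-high members. Of 15 measured milk and secretory genes 10 were at least 2-fold lower in segment-high members (median -1.57), and 1, Glycam1, was higher in segment-low members (median 0.08), with 187 of its 219 UMIs in 1 cell. The milk protein gene Csn2 was at 247, 1741 and 1467 CPM. Milk RNA occurs in every group here, and 92.1% of WT receptor-low cells held Csn2 at 5000 UMIs (94.8% unthinned), and the part of free RNA in these levels was not tested.

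Some of the highest ratios of segment-low members rested on few cells. Crct1, a cornified-envelope region gene, was at 88.7 CPM in segment-low members, 0 UMIs in segment-high members and 1.29 CPM in comparison cells, but 11 of 84 cells held it and 1 cell gave 58.7% of its UMIs. Asprv1, a skin protease gene, was at 298 CPM in segment-low members, with 46.7% of UMIs in 1 cell. Ptgs2, the inducible cyclooxygenase, was at 94.1 CPM in segment-high members, 322 CPM in segment-low members and 18.5 CPM in comparison cells, and was held by 13 of 43, 23 of 84 and 38 of 794 cells. Tpm2, an actin-binding tropomyosin gene, was more widely spread, at 11.8, 233 and 57.7 CPM. Nt5e, the ectoenzyme CD73 that makes adenosine, was at 8.82, 130.2 and 34.9 CPM.

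Among 35 neural crest and fetal factors 13 were measured, and 2 (15.4%, against 3.65% of all genes) were at least 2-fold higher in members, none lower (median 0.29). Sox11, a fetal and neural progenitor factor (chr12:27334264-27342574), did not follow the segment, at 178 CPM in segment-high members, 179 CPM in segment-low members and 87.03 CPM in comparison cells. After thinning 19 of 42, 42 of 84 and 190 of 742 of those cells held Sox11, against 3 of 4185 WT receptor-low cells; unthinned it was 34 of 43, 54 of 84, 281 of 794 and 5 of 4371. With comparison cells limited to those with at least 5 Cdkn2a UMIs, its log2 ratio was 0.51 in place of 1.04. Tfap2b, a neural crest AP-2 factor, was the other, at 187, 53.5 and 45.6 CPM. Hmga2, a fetal chromatin protein gene, was under 20 CPM in members and comparison cells pooled and held 39.7, 6.33 and 0.968 CPM. Sox9, marked by the reporter in these mice, was at 334, 579.97 and 550.1 CPM, and Sox10 at 79.4, 45.8 and 46.5 CPM. The glial marker S100b had no UMI in members or comparison cells.

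Interferon-response genes also went with the segment. Of 23 listed genes 16 were measured, and 12 were at least 2-fold higher in members (median 1.60), while none was lower. In segment-high members 14 of 17 were higher (median 2.89), and in segment-low members 1 of 10, Irf7 (median 0.19). Isg15, a ubiquitin-like modifier induced by interferon, was at 601 CPM in segment-high members, 87.3 CPM in segment-low members and 78.1 CPM in comparison cells, and 41 of 43 segment-high members held it. Bst2, a membrane tether of viruses, was at 1347, 203 and 134 CPM, and Ifi27l2a at 1381, 109 and 51.7 CPM, both in all 43 segment-high members. Bst2 spanned 2.59 to 42.6 per 10000 UMIs in segment-high members (median 12.3) and 0 to 33.4 in comparison cells (median 0.776), so single comparison cells reached the segment-high range. Irf7, a transcription factor of the response, was at 253, 35.9 and 17.3 CPM. Rsad2, an antiviral enzyme gene, was at 229, 9.15 and 15.1 CPM but came from 14 of 43 segment-high members, 3 of which gave 67.9% of its UMIs. Irf1 and Ifi27 lay within 2-fold of the comparison cells in both kinds of member.

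The promoters of 2 of these genes are shown because a known response element is found in both. The core of the interferon-stimulated response element (GAAA, any 2 bases, GAAA) was searched on both strands, overlaps included, in the 300-base windows of RefSeq (GRCm38.p6). It occurred in 11 of the 18 listed interferon genes with a window (61.1%) and in 3.99% of all 27025 gene symbols. Among antigen presentation genes with a window it occurred in 4 of 15 (26.7%). Genes were counted whatever their level in the members, so these shares describe the lists and not these cells. Capitals mark the matches, 3 overlapping ones in Isg15 and 1 in Rsad2.
Isg15, chr4:156200769-156201068, minus strand: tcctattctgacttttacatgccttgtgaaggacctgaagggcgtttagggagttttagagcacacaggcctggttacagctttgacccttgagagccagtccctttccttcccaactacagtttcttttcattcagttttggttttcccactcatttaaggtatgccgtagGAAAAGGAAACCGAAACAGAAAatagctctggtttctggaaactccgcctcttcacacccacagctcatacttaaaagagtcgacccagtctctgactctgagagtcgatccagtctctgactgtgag
Rsad2, chr12:26456403-26456702, minus strand: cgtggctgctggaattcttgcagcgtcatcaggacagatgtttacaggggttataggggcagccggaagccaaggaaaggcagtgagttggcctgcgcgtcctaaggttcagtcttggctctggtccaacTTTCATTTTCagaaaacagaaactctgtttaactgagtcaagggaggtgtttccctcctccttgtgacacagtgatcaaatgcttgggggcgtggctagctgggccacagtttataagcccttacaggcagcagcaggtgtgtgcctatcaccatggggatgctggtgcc
A match is a description of these letters, and no binding was measured.

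Antigen presentation genes followed the same split at smaller ratios. In segment-high members 11 of 16 measured genes were at least 2-fold higher and 0 lower (median 1.26), and in segment-low members 0 of 14 in either direction (median 0.04). B2m, the shared light chain of MHC class I, was at 3632 CPM in segment-high members, 1161 CPM in segment-low members and 1089 CPM in comparison cells. The heavy chain gene H2-D1 was at 10381, 4219.6 and 3924 CPM, with lowest, median and highest values of 39.9, 102 and 243 UMIs per 10000 in segment-high members and 3.56, 35.7 and 221 in comparison cells, so single cells overlapped. Psmb8, an immunoproteasome subunit gene, was at 797, 326 and 328 CPM. H2-K1 and H2-D1 are closely related class I genes, and reads could be split between them.

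Genes of the list of immune checkpoint ligands and ectoenzymes differed in both directions in segment-high members. That list also holds the cyclooxygenase gene Ptgs2, which is not a checkpoint ligand and was held by 36 of 127 members. Of 13 measured genes 4 (30.8%, against 3.65% of all genes) were at least 2-fold higher in members and 0 lower (median 0.07): Ptgs2, Cd200, Lgals9 and Nt5e. In segment-high members 3 were higher and 5 lower (median -0.21), and in segment-low members 3 were higher and 0 lower (median 0.40). Cd200, an inhibitory ligand, was at 51.5 CPM in segment-high members, 31.7 CPM in segment-low members and 8.93 CPM in comparison cells, and Lgals9 at 88.2, 22.5 and 13.1 CPM. Vtcn1, which encodes the checkpoint ligand B7x, was at 7.35, 21.8 and 20.2 CPM, from 36 UMIs in all members, and at 16.3 CPM in WT receptor-low cells. Among 18 measured cytokines and chemokines 4 were higher in members and 4 lower (median 0.05), but 10 of 19 were lower in segment-high members (median -1.0). Cxcl1, a neutrophil attractant, was at 159, 415 and 748 CPM. Cxcl10, a T cell attractant and interferon target, was at 688, 129 and 110.5 CPM. Ccl5 was at 188, 18.3 and 17.9 CPM, from 9 of 43, 2 of 84 and 24 of 794 cells.

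In the TGF-beta and activin list 4 of 18 measured genes (22.2%, against 3.65% of all genes) were at least 2-fold higher in members and 0 lower (median 0.11). In segment-high members 7 of 20 were higher and 1 lower, the ligand gene Tgfb2 (36.8, 226 and 269.7 CPM), and in segment-low members 1 of 16 was higher, Inhba. The 4 genes higher in members were the activin subunit gene Inhba, at 278 CPM in segment-high members, 305 CPM in segment-low members and 100.04 CPM in comparison cells, its antagonist Fst (138, 19 and 9.57 CPM), the decoy receptor gene Bambi (182, 28.9 and 20.8 CPM) and the ligand gene Tgfb1 (99.99, 52.1 and 28.1 CPM). Among 9 measured genes of EGF and related growth factor receptors, 1 was higher (11.1%, against 3.65% of all genes), the receptor gene Fgfr1 at 368, 115 and 60.2 CPM (list median -0.18). In segment-high members 2 of 10 genes of that list were higher and 5 lower (median -0.98), Met (27.9, 42.2 and 58.2 CPM) and Egfr (13.2, 28.9 and 27.001 CPM) among the lower. Of 17 measured YAP and TEAD targets 1, Axl, was higher (5.88%, near the 3.65% of all genes, median 0.05). The target genes Cyr61 (735, 2608 and 3144 CPM) and Ctgf (188, 806 and 693 CPM) were lower in segment-high members, where 3 of 17 targets were higher and 4 lower (median -0.34). Over all genes 9.69% were higher and 6.97% lower in segment-high members.

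The neighbour of Cdkn2a on chromosome 4, Cdkn2b (chr4:89306299-89311039), which encodes INK4B, was at 135 CPM in segment-high members, 48.6 CPM in segment-low members and 25.2 CPM in comparison cells. It was the 1 gene of 17 measured in the INK4, CIP and Rb list past 2-fold in members (5.88%, near the 3.65% of all genes, list median -0.05). Ccnd2, a D-type cyclin gene, had 33 UMIs in members, 31 of them in segment-high members, and 0 in comparison cells, and was at least 48.7-fold higher in members by a floor of 3 counts per group. Cell-cycle lists were level, with 0 of 22 S phase genes and 0 of 22 G2M genes past 2-fold in members (medians -0.01 and 0.26), and 124 of 127 members held at least 2 G2M UMIs. Of the immediate early genes, which tissue dissociation can induce, 0 of 21 were higher in members and 1 was lower, Fosl1 (median -0.44), and 8 were lower in segment-high members (median -0.77). Their summed level was 8404 CPM in segment-high members, 11032 CPM in segment-low members and 13178 CPM in comparison cells, and its part in the other differences was not tested. Hypoxia and glycolysis genes had 0 of 11 past 2-fold (median 0.28).

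**Figure D5:**
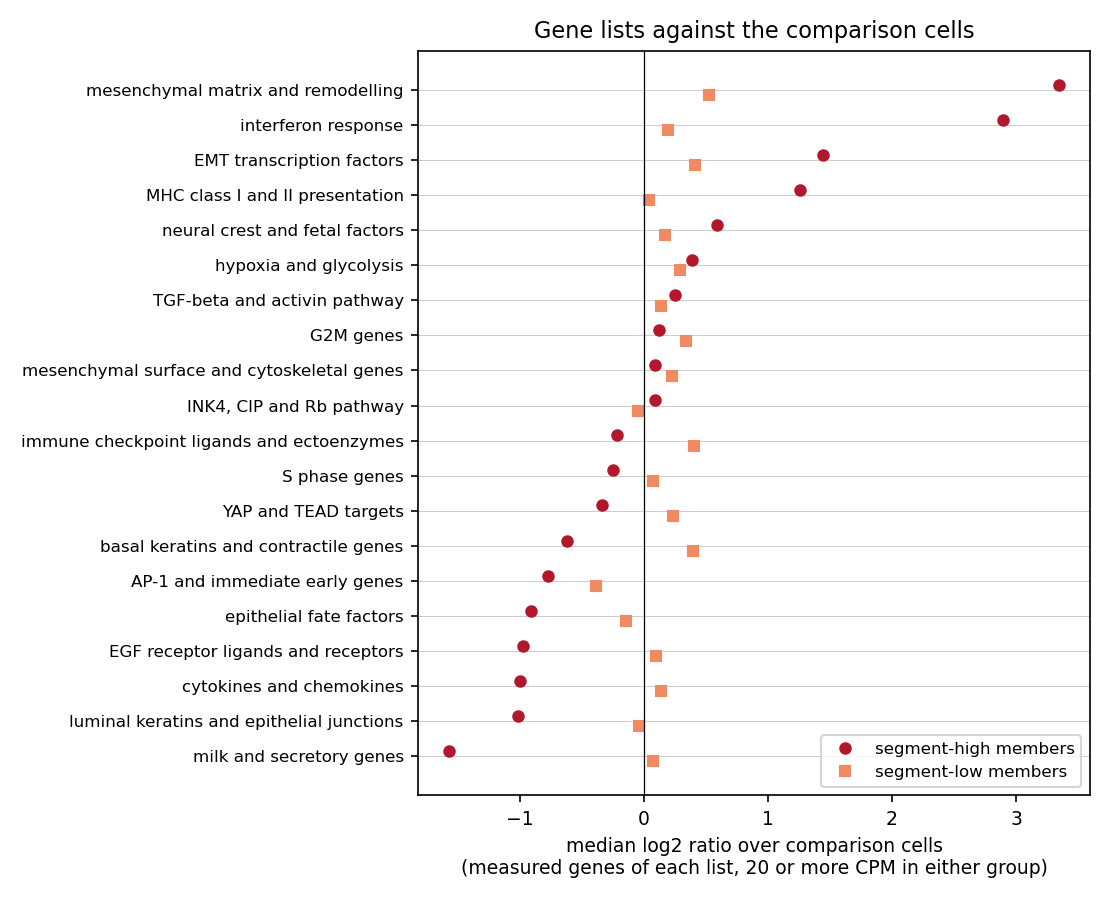
Median log2 ratio of the measured genes of each list shown over the 794 comparison cells, for 43 segment-high members and 84 segment-low members, with lists ordered by the segment-high value. Matrix (3.35) and interferon genes (2.89) lie highest and milk genes (-1.57) lowest in segment-high members, while medians of segment-low members lie between -0.39 and 0.52.

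Of the genes with at least 50 CPM in members or comparison cells, Hopx, a homeodomain-only factor, had the lowest ratio of members to comparison cells, at 5.88 CPM in segment-high members, 29.6 CPM in segment-low members and 68.6 CPM in comparison cells. Plet1, a luminal progenitor surface gene, was at 293, 871 and 1728 CPM, and the coagulation receptor gene F3 at 73.5, 327 and 567 CPM. Ly6d was at 349.96, 557 and 1016 CPM. With the stricter comparison cells of at least 5 Cdkn2a UMIs, Plet1, F3, Plaur, Arc, Csf1 and Ceacam1 lay within 2-fold, as did Sox11.

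Setting cells by both counts showed where Sparc was found. Among receptor-low C3-TAg cells with 5 or more Cdkn2a UMIs, Sparc was at 68.5 CPM in the 143 cells with under 5 Fn1 and Vim UMIs, 64.3 CPM in the 44 cells with 5 to 9, 214 CPM in the 24 cells with 10 to 19 and 379 CPM in the 28 cells with 20 or more. Of these classes 2, 5, 10 and 15 cells were segment-high. With 1 to 4 Cdkn2a UMIs, Sparc was at 20.6, 44.6, 24.5 and 52.3 CPM in the same order of Fn1 and Vim, and 2, 4, 0 and 0 cells were segment-high. The 6 cells without Cdkn2a and with 20 or more Fn1 and Vim UMIs stood apart, with 2667 CPM of Sparc, 825 CPM of Col1a2, 344 CPM of Krt18 and 0 segment-high cells. Segment-high cells were most frequent where both counts were high, and none was found among these cells without Cdkn2a. The segment had been found by the ratio of members, high in both counts, to comparison cells. This order therefore follows in part from that choice and is a description only.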

How the data were processed

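The authors deposited, for each genotype, a gene by barcode matrix of raw UMI counts. Per the submitters' processing notes it was made with Cell Ranger 3.1.0 on mm10, and no further normalization is recorded in the sources used here. The C3-TAg library held 91932121 UMIs in 9575 barcodes and the WT library 91133082 UMIs in 8993 barcodes. From these counts, cells were filtered and grouped by the thresholds given in the report, UMIs were summed per group, and levels were scaled to CPM. Ratios of pooled levels carry 95% conditional Poisson intervals, levels exact Poisson intervals and shares Clopper-Pearson intervals. These cover counting error only, since each genotype was 1 library. A gene was measured at 20 CPM or more in either group, and counted as higher or lower at 2-fold or more. A group at 0 was set to a floor of 3 counts for a bound. Shares of cells holding a gene were computed after each cell was thinned to 5000 UMIs.

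Scrublet, as in scanpy 1.11.5, called 544 of 8458 kept C3-TAg cells (6.43%) doublets, and these were kept except in an alternative. The ratio code was checked on simulated counts. Scripts ran under Python 3.11.15 with matplotlib 3.10.9, pandas 2.3.3, scipy 1.17.1 and numpy 2.4.6. Positions came from GENCODE on GRCm38 for 30934 of 31053 gene IDs.

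The genes named were the markers of the cells, the 15 highest and 15 lowest ratios among genes of 50 CPM or more, up to 3 genes at either end of each list, and 3 stromal markers. Further genes named from the lists, and the chromosome 7 segment with the split it gave, were chosen after their values were seen. The members and gene lists were chosen with earlier results of these data known. Alternatives covered doublets, the thresholds of the rule, the mitochondrial limit, the comparison cells, depth, cell cycle genes, TMM (trimmed mean) scaling, equal weight per cell and the minimum level. Values of 2 genes are not reported here.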

Additional observations from a re-analysis of the deposited data

How the results depend on the processing

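The rule found 127 members, with 246 genes at least 2-fold higher and 39 lower. Thresholds set the number of cells: 76 members remained at 10 Cdkn2a UMIs, with 106 genes lower. At 10 Fn1 and Vim UMIs there were 68 members and 119 genes lower, and at 20 there were 38 members, 508 genes higher and 210 lower. Thinned to 5000 UMIs, 44 of 7884 cells met the rule, 30 of them segment-high. Genes counted as lower were 75 without called doublets, 107 in cells of 8000 to 20000 UMIs and 63 as a mean over cells. A minimum of 10 CPM gave 433 higher and 64 lower, and 50 CPM gave 104 and 16. Without segment-high cells, an alternative added after seeing the data, 84 members had 130 genes higher and 17 lower, and 14 of 32 named genes were no longer past 2-fold. Held to the receptor limit of the comparison cells, 96 members remained, and 1 of 32 named genes was no longer past 2-fold. Cells with under 2 G2M UMIs left 3 members, with 3312 genes higher and 370 lower, and the log2 ratio turned round for Sox11 (-1.15), Arc (1.74), Fosl1 (0.88), Plaur (0.62) and Cracr2b (0.92). Apart from the alternatives that set fewer cells or another minimum by construction, the cause was not tested. TMM scaling moved all ratios of members by 0.095 on the log2 scale and put Sox11 at 0.94. No paired analysis was possible because each genotype was 1 library and members and comparison cells share it.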

Other observations

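Small shifts of whole chromosomes were seen beside the chromosome 7 segment. Over 298 expressed genes of chromosome 6 the median log2 ratio to comparison cells was 0.44 in segment-high members and 0.10 in segment-low members. Over 223 genes of chromosome 19 it was -0.66 in segment-high members and -0.093 in segment-low members, and 10.3% and 33.2% of those genes lay above 0. Over all 5967 genes with a position the medians were -0.05 and 0.02, and 46.4% and 53.5% of genes lay above 0. Chromosomes 6 and 19 had the highest and lowest segment-high medians. Those of chromosomes 16, 4, 5, 9 and 2 were -0.32, -0.27, -0.27, 0.23 and 0.22. DNA copy number was not measured, and these medians were looked at after the segment had been found.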
